A study of Homo sapiens with 16 samples.

Results

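The genes described here are 50 genes of mitosis and the kinetochore, taken as the rows of the gene-body and promoter-proximal count tables whose gene symbol is on a fixed list, and all 50 were found among the 10304 transcripts of the tables. This list and the other gene lists used below were chosen with earlier results of these data known. The 50 genes were followed by PRO-seq, a nuclear run-on assay that maps RNA polymerases engaged in transcription, in Kasumi-1 cells, an established line from a human acute myeloid leukaemia with the RUNX1-RUNX1T1 fusion gene. Every library compared here came from cells in which both alleles of endogenous SMARCA5 carry the FKBP12F36V tag, so that dTAG-47, a degrader that joins the tag to the ubiquitin ligase subunit cereblon, removes the protein; SMARCA5 (also SNF2H) is the ATPase of the ISWI nucleosome-sliding complexes. The groups were untreated tagged cells (0 h, n = 5 libraries) and tagged cells given 500 nM dTAG-47 for 2 h (n = 3), 6 h (n = 4) or 24 h (n = 2). The untreated cells carry the tag too, and tagged cells given vehicle or an inactive degrader are not analysed here, so the agent and the loss of SMARCA5 cannot be told apart. The submitters call the libraries biological replicates, and parental Kasumi-1 cells without the tag are not analysed here.

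The column headers place the libraries in 3 runs, which are taken only as what the headers show. Run 1 held 2 untreated libraries and 1 of 2 h, run 2 held 2 libraries of each of the 4 times, and run 3 held 1 untreated library and 2 of 6 h. The 24 h group therefore lies in run 2 alone. The 2 untreated libraries of run 1 stand apart from the rest on the first principal component, which held 46.8% of the variance. Each change below was fitted with the run as a term, because comparisons were to be read within runs. Such a term does not take out a difference between the untreated and treated libraries of 1 run. Values within runs are given for the group and for some of the genes. Depth was 11182894 to 34209362 gene-body reads and 1667950 to 7171601 promoter-proximal reads a library. Of 13 myeloid leukaemia markers 9 were among the transcripts analysed, of 6 T and NK cell markers and 5 B cell markers 0 were, and of 6 erythroid and 7 epithelial or fibroblast markers 1 each was. SMARCA5 itself was read at 98.3 to 147 gene-body CPM (reads scaled to a common library total) before treatment and 84.1 to 107 after it; because the degrader acts on the protein, this checks no label.

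Cells make the proteins of mitosis in a burst late in the cell cycle. Before that, the DREAM complex, which binds the cell cycle homology region (CHR) of their promoters, holds these genes down, and later the MuvB core is joined by B-MYB and FOXM1, which turn them on, while NF-Y binds CCAAT boxes nearby. E2F sites are more typical of the genes of DNA replication. The products then act in turn: cyclin B with CDK1 drives entry, Aurora and Polo kinases and the kinetochore attach chromosomes to the spindle, the checkpoint holds the anaphase-promoting complex until all are attached, and kinesins, condensin and the cytokinesis proteins divide the cell. In a bulk culture such as this, a change in the number of cells late in the cell cycle and a change in transcription per cell cannot be told apart.

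The promoters of 4 of the genes with the smallest adjusted p at 24 h are shown to make these elements visible. Each is the 250 bases before the RefSeq start on GRCh38.p14, read on the gene's own strand, with capitals on CCAAT, on the CHR letters TTTGAA or TTCGAA and on the E2F-like letters TTGGCGC or TTCCCGC, each on either strand (CCAAT then reads ATTGG). MKI67, the proliferation antigen that coats mitotic chromosomes, lies on the minus strand at chr10:128126424-128126673, and its last CHR match and last CCAAT match share a base.
MKI67: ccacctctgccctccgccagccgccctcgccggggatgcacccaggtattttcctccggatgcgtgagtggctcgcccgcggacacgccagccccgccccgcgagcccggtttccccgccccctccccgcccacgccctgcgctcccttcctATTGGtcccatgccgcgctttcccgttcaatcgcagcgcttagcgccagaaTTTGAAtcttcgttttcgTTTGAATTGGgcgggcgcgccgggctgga
CDC25C, the phosphatase that activates cyclin B with CDK1, lies on the minus strand at chr5:138331878-138332127.
CDC25C: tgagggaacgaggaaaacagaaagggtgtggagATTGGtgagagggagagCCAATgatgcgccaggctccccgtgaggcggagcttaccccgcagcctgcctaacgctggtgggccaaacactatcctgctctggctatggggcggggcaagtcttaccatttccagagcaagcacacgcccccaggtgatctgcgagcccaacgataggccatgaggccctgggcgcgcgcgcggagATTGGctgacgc
NCAPD2, a subunit of condensin I, lies on the plus strand at chr12:6493852-6494101.
NCAPD2: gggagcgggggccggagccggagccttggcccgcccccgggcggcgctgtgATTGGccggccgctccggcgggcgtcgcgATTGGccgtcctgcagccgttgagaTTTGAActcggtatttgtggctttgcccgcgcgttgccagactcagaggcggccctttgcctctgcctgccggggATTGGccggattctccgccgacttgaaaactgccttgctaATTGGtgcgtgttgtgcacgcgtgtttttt
CENPA, the histone H3 variant that marks centromeres, lies on the plus strand at chr2:26785806-26786055.
CENPA: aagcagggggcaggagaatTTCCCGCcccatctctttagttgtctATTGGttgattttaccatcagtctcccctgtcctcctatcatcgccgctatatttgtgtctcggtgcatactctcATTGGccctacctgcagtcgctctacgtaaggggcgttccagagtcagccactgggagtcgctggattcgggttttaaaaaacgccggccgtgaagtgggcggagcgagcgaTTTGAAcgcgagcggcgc
In MKI67 the CHR letters began 47 and 29 bases before the start and in CENPA 18 bases before it. NCAPD2 held 4 CCAAT matches, at 199, 170, 70 and 30 bases before the start, and CDC25C held 3, at 217, 200 and 12 bases. CDC25C held 0 CHR matches in this window.

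RefSeq gave a promoter for 45 of the 50 genes, and FOXM1, AURKA, TTK, BUB3 and TPX2 are named only. The CHR letters were found in 26 of the 45 (57.8%), against 9.0% of the 7395 tested genes with a promoter and 14.5% of all 27305 promoters of the same length. CCAAT was found in 33 (73.3%), against 36.8% and 33.1%. Both were found in 21 (46.7%), against 3.9% and 5.2%. The E2F-like letters were found in 7 (15.6%), against 13.4% and 8.0%. With the 50 bases after the start included, the CHR letters were found in 37 of the 45 (82.2%), against 10.7% of tested genes and 16.6% of all promoters. The letters describe the window and are not sites of binding measured here.

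Before treatment the 50 genes were transcribed at ordinary levels for these cells. Per length, their median gene-body level was 2.28 CPM per kilobase against 1.94 over all transcripts, and 31 of the 50 lay above the median of all. The order ran from PLK1 at 7.24 ± 2.19 CPM per kilobase (SD, n = 5) and CDK1 at 7.15 ± 0.83, which do not differ beyond their spread, through SMC4 at 5.73 ± 0.55 and MKI67 at 5.26 ± 0.58 down to KIF18A at 0.94 ± 0.05 and KIF4A at 0.71 ± 0.04. Their promoter-proximal reads were a larger share of their gene-body reads than usual, with a median ratio of 0.272 against 0.145 over all transcripts. The ratio was highest for AURKB, the kinase of the chromosomal passenger complex, at 6.90 (1.99 to 13.4 over the 5 libraries). It was lowest for CENPI, a kinetochore subunit, with 1 to 4 promoter-proximal reads an untreated library, and ECT2, the exchange factor that starts the cleavage furrow, with 4 to 11. All 3 ratios come from windows whose size is not given in the sources used here.

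At 24 h the gene bodies of the group were, as a whole, higher than in untreated cells. Of the 50 genes, 12 rose and 0 fell, where 10.8% of all 10304 transcripts rose and 9.08% fell (called here and below at an adjusted p under 0.05 in edgeR's quasi-likelihood test with Benjamini-Hochberg adjustment over all transcripts). The fitted log2 change was above 0 in 43 of 50 (86%), against 51.6% of all transcripts, and its median was 0.21 against 0.01. At an unadjusted p under 0.05, 22 were higher and 1, ECT2, was lower, and DESeq2 called 15 higher and 0 lower. Within run 2, the run that holds the 24 h group, 48 of 50 were higher than the untreated mean (all transcripts 50.9%), with a median log2 difference of 0.25. In 44 of the 50 both 24 h libraries lay above both untreated libraries of run 2, where 37.2% of all transcripts did, and in 28 they lay above all 5 untreated libraries, where 17.5% did. The reads of the 50 genes made up 0.535% and 0.534% of all gene-body reads in the 24 h libraries and 0.394% to 0.486% in the untreated ones. The count of 12 rests on few libraries: it was lower without either 24 h library, which leaves 1 library at that time. In run 2 alone it was 32, and the share of all transcripts called in that fit is not given here.

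**Figure D1:**
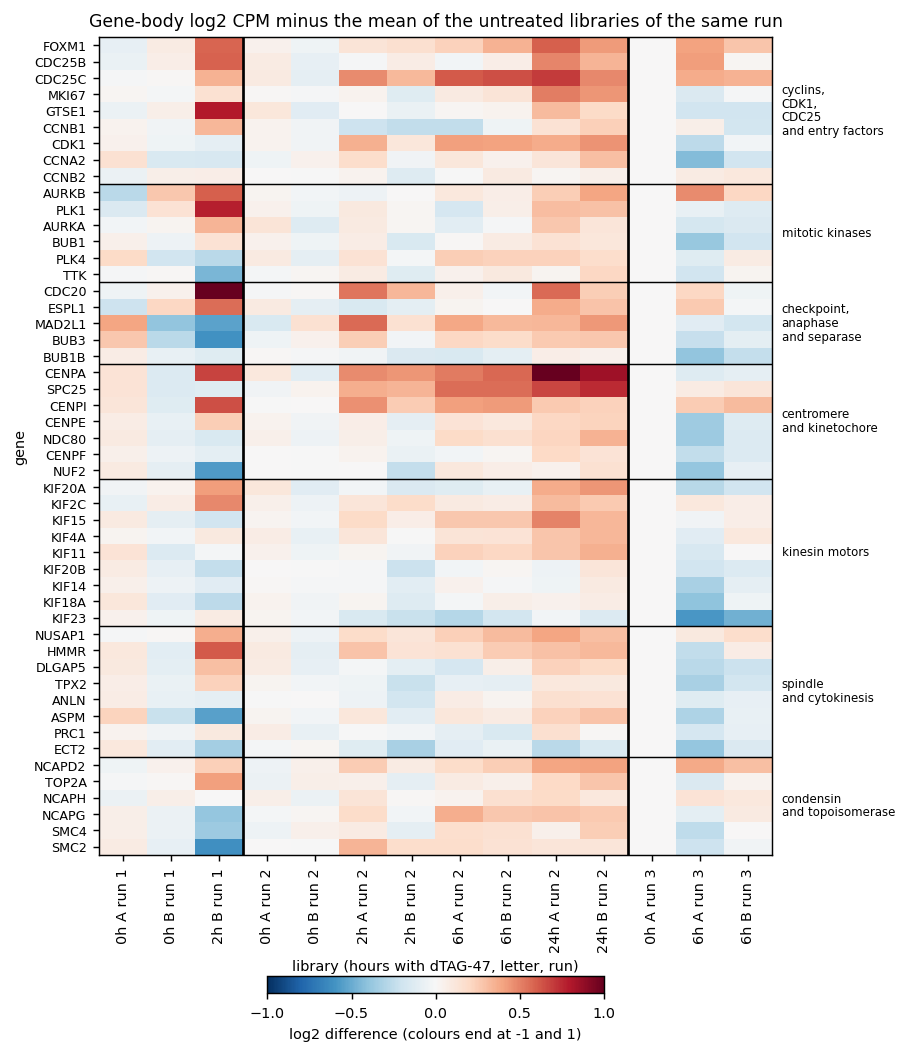
Heat map of gene-body log2 CPM minus the mean of the untreated libraries of the same run, for the 50 genes (rows, grouped by role) in the 14 libraries (columns, grouped by run, colours cut at -1 and 1). Both 24 h libraries are red in most rows, whereas the 6 h libraries are mostly red in run 2 and mostly blue in run 3.

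At 2 h and 6 h the group had no common direction. After 2 h, 10 genes rose and 2 fell, where 19.7% of all transcripts rose and 18.9% fell, and 27 of the 50 fitted changes were above 0, with a median of 0.01. After 6 h, 6 rose and 2 fell, where 13.5% rose and 13.4% fell, and 28 were above 0, with a median of 0.02. The shares called were thus near or below those of all transcripts. The runs differed at 6 h: 38 of 50 were above the untreated mean in run 2 (median 0.08) and 14 of 50 in run 3 (median -0.11), where the untreated side is 1 library. At 2 h run 1 had a median of 0.09 (28 genes higher) and run 2 a median of 0.00 (25 higher). Without the 2 h library of run 1 the count at 2 h was 3, and without 2 h library A of run 2 it was 15.

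**Figure D2:**
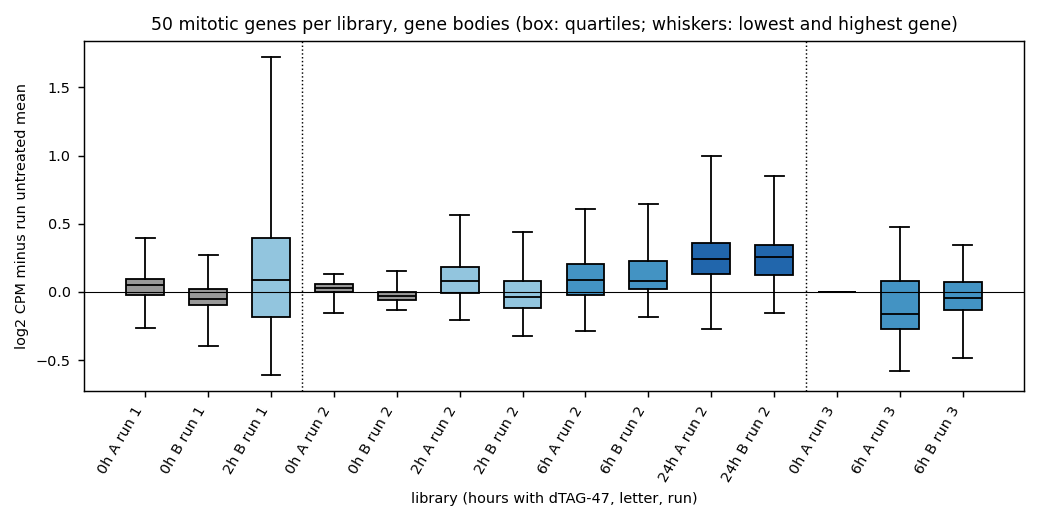
Box plot, 1 box a library, of the 50 genes' gene-body log2 CPM minus the untreated mean of the same run (line, median; box, quartiles; whiskers, lowest and highest gene). Both 24 h boxes lie above 0, with medians of 0.24 and 0.25, while the 6 h medians are 0.09 and 0.08 in run 2 and -0.16 and -0.05 in run 3.

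Set against the treated times directly, the 24 h libraries were also the higher ones, although few single genes passed. Against 2 h, 47 of 50 fitted changes were above 0 (94%, against 48.6% of all transcripts), with a median of 0.19, and 1 gene, MKI67, rose, where 3.03% of all transcripts rose and 1.05% fell. Against 6 h, 46 of 50 were above 0 (92%, against 49.4%), with a median of 0.19, and 0 passed in edgeR's test, where 0.146% of all transcripts rose and 0.0291% fell; at an unadjusted p under 0.05, 14 were higher and 0 lower, and DESeq2 called 1. These comparisons share the 24 h libraries with the one against 0 h. In run 2 alone, 25 genes rose against 2 h and 12 against 6 h. The share of all transcripts called in that fit is not given here, so these counts cannot be set against the shares above.

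Among the cyclins, CDK1, the CDC25 phosphatases and the other entry factors, 4 of 9 rose at 24 h and all 9 fitted changes were above 0. MKI67 (hg19 chr10:129894925-129924468) was read before treatment at 138 and 135 CPM in run 1, 170.4 and 167 in run 2 and 166 in run 3. It was at 152 in run 1 and 172 and 155 in run 2 after 2 h, at 179 and 185 in run 2 and 150.3 and 165 in run 3 after 6 h, and at 240.5 and 229 after 24 h. Both 24 h libraries thus lay above all 12 others, while the earlier times overlapped the untreated ones. The log2 change was 0.01 ± 0.07 (SE) at 2 h, 0.07 ± 0.07 at 6 h and 0.48 ± 0.08 at 24 h, the last with an edgeR adjusted p of 0.0018. From 2 h to 24 h it was 0.47 ± 0.09 (edgeR adjusted p = 0.0084), a test of the difference between the times, which did not pass without either 24 h library or without the run term.

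CDC25C (hg19 chr5:137620959-137667516) rose at each time. Its untreated level was 46.2 and 47.03 CPM in run 1, 46.95 and 41.6 in run 2 and 51.4 in run 3, and its treated levels were 59.5 in run 1 and 61.3 and 55.4 in run 2 after 2 h, 67.5 and 69.1 in run 2 and 66.5 and 65.3 in run 3 after 6 h and 71.8 and 61.8 after 24 h. All 9 treated libraries lay above all 5 untreated ones. The log2 changes were 0.34 ± 0.08 at 2 h, 0.51 ± 0.08 at 6 h and 0.54 ± 0.10 (SE) at 24 h, with edgeR adjusted p of 0.0055, 0.00063 and 0.0027. The 2 h and 6 h calls were kept in all 21 alternatives, and that of 24 h was lost only without 24 h library A (edgeR adjusted p = 0.060).

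FOXM1 (hg19 chr12:2966847-2986321), the forkhead factor that activates this gene set, was at 22.4 and 25.2 CPM in run 1, 31.1 and 29.4 in run 2 and 29.4 in run 3 before treatment. It was at 35.7 in run 1 and 33.05 and 33.9 in run 2 after 2 h, at 35.5 and 38.5 in run 2 and 38.9 and 35.7 in run 3 after 6 h and at 45.95 and 40.7 after 24 h, so that here too no treated library overlapped the untreated ones. The log2 change was 0.33 ± 0.10 at 2 h, 0.37 ± 0.10 at 6 h and 0.60 ± 0.12 (SE) at 24 h (edgeR adjusted p = 0.019, 0.016 and 0.0042). Run 1 sets much of the 2 h value, with a difference of 0.58 there against 0.14 in run 2, and without run 1 the 2 h call did not pass. Leaving out 6 h library B of run 2, or the untreated one of run 3, ended the 6 h call, and the 24 h call was lost without 24 h library A.

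CDC25B (hg19 chr20:3776401-3786761), another activator of CDK1 at entry, was at 9.70 and 10.6 CPM in run 1, 18.2 and 16.2 in run 2 and 20.7 in run 3 before treatment, 15.3 in run 1 and 17.1 and 18.1 in run 2 after 2 h, 16.8 and 17.99 in run 2 and 27.8 and 20.98 in run 3 after 6 h and 24.1 and 21.9 after 24 h. Its untreated libraries were low in run 1 and high in run 3, and 24 h was the 1 time whose libraries all lay above them. It rose by 0.55 ± 0.16 (SE, log2) at 24 h (edgeR adjusted p = 0.029), a call lost without either 24 h library, without 0 h library B of run 2 or the untreated library of run 3, and without the run term. The 24 h difference within run 2 was 0.41.

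CCNB1 (hg19 chr5:68462837-68474070), the B-type cyclin that carries CDK1 into mitosis, did not pass at any time. It was at 38.1 and 36.2 CPM in run 1, 49.2 and 46.8 in run 2 and 50.4 in run 3 before treatment, 46.9 in run 1 and 41.5 and 40.5 in run 2 after 2 h, 40.5 and 46.4 in run 2 and 52.4 and 44.4 in run 3 after 6 h and 53.1 and 56.6 after 24 h. Its 24 h change was 0.30 ± 0.13 (SE, log2; edgeR adjusted p = 0.12), although both 24 h libraries lay above all untreated ones. CDK1 (hg19 chr10:62538212-62554610), the kinase itself, was at 134 and 126 CPM in run 1, 106 and 101 in run 2 and 120.0 in run 3 before treatment, 122 in run 1 and 133 and 112 in run 2 after 2 h, 137 and 136 in run 2 and 100.4 and 118 in run 3 after 6 h and 134 and 141 after 24 h. Its untreated values were highest in run 1 and lowest in run 2, and its 24 h change was 0.25 ± 0.13 (edgeR adjusted p = 0.18). The others at 24 h were 0.35 for GTSE1, 0.10 for CCNA2 and 0.06 for CCNB2.

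**Figure D3:**
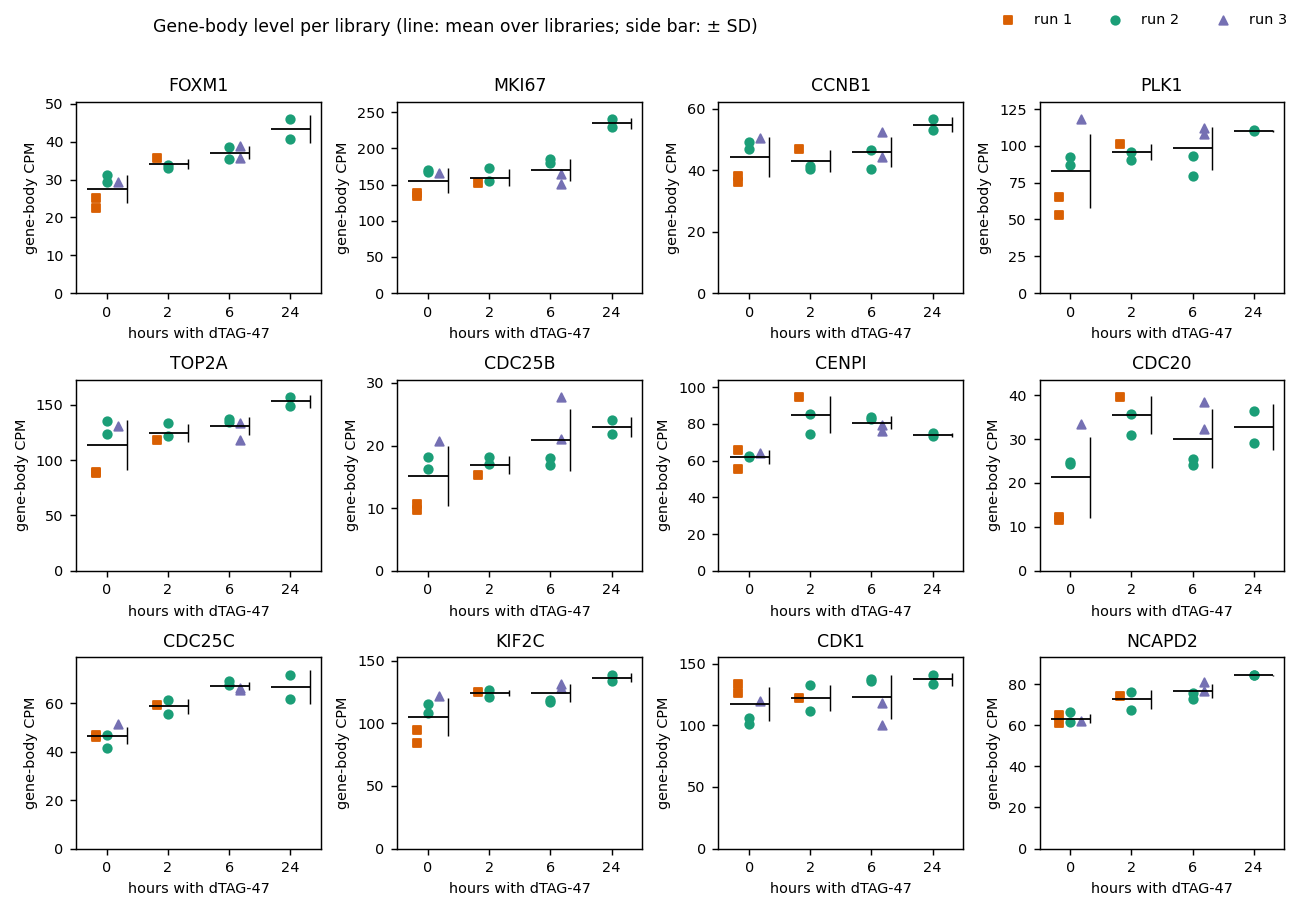
Gene-body CPM (y axis from 0) of 12 genes against hours with dTAG-47, 1 point a library with shape and colour by run, the line the mean and the side bar ± SD over the libraries of a time. MKI67 sits at 229 and 240.5 CPM at 24 h and at 185 or less elsewhere, CENPI is high at 2 h and 6 h, and the run 1 untreated points of PLK1, CDC20 and TOP2A are the lowest.

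Of the 6 mitotic kinases, PLK1, which acts from centrosome maturation to cytokinesis, rose at 2 h and 0 rose at 24 h, when all 6 fitted changes were above 0. PLK1 (hg19 chr16:23690201-23701688) was at 53.3 and 65.2 CPM in run 1, 92.2 and 86.9 in run 2 and 118 in run 3 before treatment, with the untreated library of run 3 above all 13 others. It was at 101 in run 1 and 95.7 and 90.7 in run 2 after 2 h, 79.7 and 93.3 in run 2 and 112 and 108 in run 3 after 6 h and 111 and 109.8 after 24 h. The 2 h change was 0.34 ± 0.12 (SE, log2; edgeR adjusted p = 0.043), with 0.78 in run 1 and 0.06 in run 2, and the call was lost in 13 of 21 alternatives, among them run 2 alone and run 1 left out. At 24 h PLK1 was at 0.41 ± 0.15 (edgeR adjusted p = 0.065), and its 24 h difference within run 2 was 0.30. The other kinases at 24 h were 0.47 for AURKB, 0.22 for AURKA of the spindle poles, 0.10 for the checkpoint kinase BUB1, 0.10 for PLK4 of centriole copying and 0.02 for TTK.

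Of the 5 genes of the checkpoint and of anaphase, CDC20, the activator of the anaphase-promoting complex, rose at 2 h and BUB1B, a checkpoint subunit that holds CDC20, fell at 6 h by 0.20 ± 0.07 (SE, log2). The BUB1B call was lost in 9 of 21 alternatives, among them run 2 alone, and its 6 h difference was -0.13 in run 2 and -0.32 in run 3. CDC20 (hg19 chr1:43824626-43828873) was at 11.5 and 12.3 CPM in run 1, 24.4 and 24.7 in run 2 and 33.4 in run 3 before treatment, at 39.6 in run 1 and 35.6 and 30.9 in run 2 after 2 h, at 25.4 and 24.03 in run 2 and 38.5 and 32.4 in run 3 after 6 h and at 36.4 and 29.1 after 24 h. The run 1 untreated libraries were the lowest of all 14, and the untreated library of run 3 overlapped every treated time. The change of 0.98 ± 0.19 (SE, log2; edgeR adjusted p = 0.0022) at 2 h was 1.73 in run 1 and 0.43 in run 2, and without the run term the call did not pass. At 24 h CDC20 was at 0.65 ± 0.24 and ESPL1, the separase that cuts cohesin, at 0.46 ± 0.16 (edgeR adjusted p = 0.068 and 0.055). Within run 2, which holds the 24 h libraries, the differences were smaller, at 0.41 and 0.33. MAD2L1, BUB3 and BUB1B were at 0.11, 0.07 and 0.02.

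Of the 7 centromere and kinetochore genes, CENPA and SPC25 rose at 24 h. CENPA (hg19 chr2:27008882-27017455) went from 14.3 and 11.8 CPM in run 1, 15.7 and 13.6 in run 2 and 23.2 in run 3 to 29.3 and 26.4 at 24 h, the largest fitted change of the 50 at that time, 0.84 ± 0.17 (SE, log2; edgeR adjusted p = 0.0043), a call lost without 24 h library A. Its 2 h libraries were at 20.9 in run 1 and 20.4 and 19.9 in run 2 (0.45 ± 0.14, a call lost without run 1) and its 6 h libraries at 20.99 and 21.9 in run 2 and 21.2 and 21.8 in run 3, and in run 3 these lay below the untreated library. SPC25, a subunit of the NDC80 complex that binds microtubules, was at 35.6 ± 3.94 CPM (SD, n = 5) before treatment and 52.95 ± 1.93 (SD, n = 2) at 24 h, a log2 change of 0.54 ± 0.13 (edgeR adjusted p = 0.014), a call lost without either 24 h library. Its rise at 6 h was 0.32 ± 0.11 (run 2 alone gave a difference of 0.56, run 3 one of 0.10), and that call was lost in 10 of 21 alternatives.

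CENPI (hg19 chrX:100354798-100417978), a subunit of the constitutive centromere network, rose at 2 h and 6 h and did not pass at 24 h. It was at 65.8 and 55.4 CPM in run 1, 62.1 and 62.7 in run 2 and 64.02 in run 3 before treatment, 94.6 in run 1 and 85.6 and 74.5 in run 2 after 2 h, 82.9 and 83.96 in run 2 and 76.2 and 79.6 in run 3 after 6 h and 74.9 and 73.3 after 24 h, and all 9 treated libraries lay above all 5 untreated ones. The log2 change was 0.45 ± 0.08 at 2 h and 0.40 ± 0.08 at 6 h (edgeR adjusted p = 0.0015 and 0.0041), calls kept in all 21 alternatives, and 0.27 ± 0.10 at 24 h (edgeR adjusted p = 0.078). From 2 h to 24 h the difference was -0.18 ± 0.11 (edgeR adjusted p = 0.42), so a decline was not shown. NUF2, the partner of NDC80, fell by 0.33 ± 0.11 (SE, log2) at 2 h, a call lost in 9 of 21 alternatives, among them run 2 alone and run 1 left out, and was at -0.03 at 24 h. CENPE, NDC80 and CENPF were at 0.20, 0.18 and 0.12.

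The 9 kinesins split. KIF20A, KIF2C, KIF15 and KIF4A rose at 24 h, by 0.47 ± 0.13, 0.35 ± 0.09, 0.31 ± 0.10 and 0.29 ± 0.08 (SE, log2). None of these 4 calls was kept without 24 h library A or without 24 h library B, and that of KIF15 was lost in 8 of 21 alternatives. KIF20A carries the passenger complex to the midzone, KIF2C takes apart microtubule ends at centromeres, KIF15 helps keep spindles bipolar, and KIF4A sets the length of the midzone. KIF2C (hg19 chr1:45205490-45233438) was at 84.7 and 94.4 CPM in run 1, 115 and 108 in run 2 and 122 in run 3 before treatment, 125 in run 1 and 121 and 126 in run 2 after 2 h, 118 and 118 in run 2 and 132 and 128 in run 3 after 6 h and 139 and 134 after 24 h, so that 24 h was the 1 time with all libraries above the untreated ones. Its 2 h change was 0.28 ± 0.07 (edgeR adjusted p = 0.0084), with 0.48 in run 1 and 0.15 in run 2, and it did not pass without run 1. KIF11, the main motor of spindle bipolarity, was at 0.26 ± 0.09 at 24 h (edgeR adjusted p = 0.065).

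The other 4 kinesins did not pass at 24 h. KIF20B, KIF14, KIF18A and KIF23 were at -0.01, -0.02, -0.02 and -0.09. KIF23, the motor of centralspindlin, fell at 6 h by 0.32 ± 0.09 (SE, log2; edgeR adjusted p = 0.020), from 40.2 and 37.97 CPM in run 1, 50.5 and 48.5 in run 2 and 55.2 in run 3 to 40.6 and 43.6 in run 2 and 36.8 and 39.5 in run 3. Its 6 h libraries lay below the untreated ones of their own run, while the untreated libraries of run 1 overlapped them, and the call was lost without 6 h library A of run 2 or the untreated library of run 3.

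Of the 8 spindle and cytokinesis genes, NUSAP1, which bundles spindle microtubules, rose at 2 h, 6 h and 24 h by 0.22 ± 0.07, 0.25 ± 0.07 and 0.36 ± 0.08 (SE, log2). Its 2 h call was lost in 6 of 21 alternatives, among them run 2 alone and run 1 left out, its 6 h call without either 6 h library of run 2 and its 24 h call without 24 h library A. HMMR, a spindle pole protein, rose at 2 h by 0.34 ± 0.11, a call lost without run 1, and was at 0.32 ± 0.14 at 24 h. ECT2 moved the other way: it fell at 2 h by 0.29 ± 0.08, a call lost without run 1, and was at -0.26 ± 0.10 at 24 h (edgeR adjusted p = 0.076). ECT2 was the 1 gene of the 50 whose 24 h libraries both lay below both untreated libraries of run 2, where 36.1% of all transcripts did. DLGAP5, TPX2, ANLN, ASPM and PRC1 were at 0.23, 0.13, 0.13, 0.11 and 0.11.

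Of the 6 genes of condensin and topoisomerase, NCAPD2 (hg19 chr12:6603298-6641132) rose at 2 h, 6 h and 24 h. It was at 61.2 and 65.03 CPM in run 1, 61.7 and 66.2 in run 2 and 62.2 in run 3 before treatment, 74.5 in run 1 and 76.2 and 67.5 in run 2 after 2 h, 72.7 and 75.8 in run 2 and 80.98 and 76.7 in run 3 after 6 h and 84.2 and 84.6 after 24 h. Its untreated libraries were close together over the runs, at 63.3 ± 2.21 CPM (SD, n = 5), and no treated library overlapped them. The log2 changes were 0.21 ± 0.07, 0.27 ± 0.07 and 0.43 ± 0.08 (SE), with edgeR adjusted p of 0.023, 0.010 and 0.0029, and the 2 h call was lost in 6 of 21 alternatives, among them run 2 alone and run 1 left out. The 6 h call was lost without the untreated library of run 3, and the 24 h call was kept in all 21 alternatives.

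TOP2A (hg19 chr17:38544773-38574202), the topoisomerase that untangles sister chromatids, was at 88.3 and 89.6 CPM in run 1, 124 and 135 in run 2 and 130.4 in run 3 before treatment, 118 in run 1 and 134 and 122 in run 2 after 2 h, 137 and 134 in run 2 and 118 and 134 in run 3 after 6 h and 149 and 157 after 24 h. Both 24 h libraries lay above all 12 others, while the change of 0.29 ± 0.11 (SE, log2) missed the threshold (edgeR adjusted p = 0.066). NCAPH, NCAPG, SMC4 and SMC2, the other condensin subunits, were at 0.14, 0.14, 0.04 and -0.08, against 0.43 for NCAPD2.

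**Figure D4:**
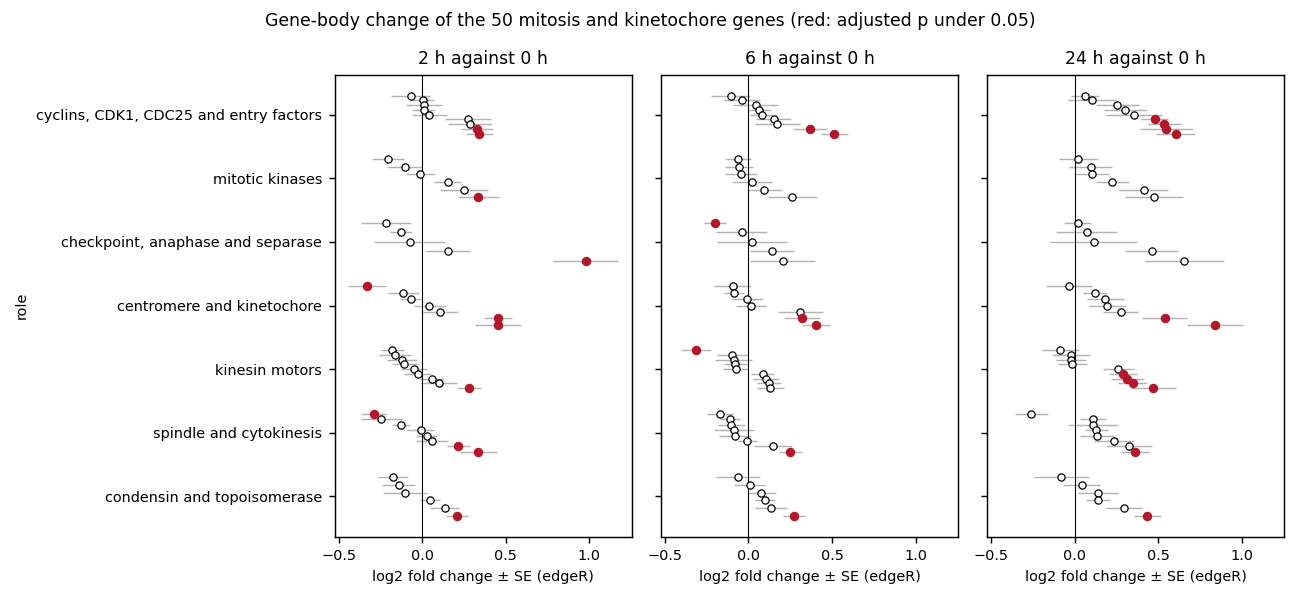
Gene-body log2 fold change ± SE of the 50 genes at 2 h, 6 h and 24 h against 0 h, grouped by role (red: edgeR adjusted p under 0.05). At 24 h the 12 red points are all above 0 and lie in 5 of the 7 roles, with none among the kinases or the checkpoint genes.

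Few promoter-proximal counts passed. Of the 49 genes that passed the filter on low counts (CENPI did not), 1 rose and 1 fell at 2 h, where 2.43% of 9980 transcripts rose and 2.17% fell. At 6 h 0 passed (0.802% rose and 1.44% fell over all), with 2 higher and 1 lower at an unadjusted p under 0.05. At 24 h 0 passed (0.631% and 0.782%), with 2 higher and 2 lower, and DESeq2 called 0 at both times. The median log2 change at 24 h was 0.16, with 32 of 49 above 0, but scaled by the gene-body library sizes it was -0.10, as the median of all transcripts then moved to -0.23. Both 24 h libraries lay above all untreated ones in 6 of 49 genes (7.86% of all transcripts) and below them in 2 (7.07%).

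CDK1 was the gene that rose near its promoter at 2 h. It was at 64.3 and 64.3 promoter-proximal CPM in run 1, 81.3 and 100.1 in run 2 and 223 in run 3 before treatment, at 103 in run 1 and 203 and 148 in run 2 after 2 h, at 100.3 and 105 in run 2 and 331 and 290.5 in run 3 after 6 h and at 152 and 93.2 after 24 h. Run 3 was high both before and after treatment, so the change is read within runs, where it was 0.67 in run 1 and 0.93 in run 2. The fitted change was 0.88 ± 0.20 (SE, log2; edgeR adjusted p = 0.018), and it did not pass without the run term, with gene-body library sizes, or without 0 h library A or 2 h library A of run 2. The gene body of CDK1 was at 0.04 ± 0.10 at the same time.

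FOXM1 fell near its promoter while its gene body rose. It was at 12.3 and 16.02 promoter-proximal CPM in run 1, 14.6 and 14.8 in run 2 and 8.06 in run 3 before treatment, at 8.21 in run 1 and 7.28 and 7.43 in run 2 after 2 h, at 11.3 and 8.30 in run 2 and 5.02 and 4.85 in run 3 after 6 h and at 7.52 and 7.60 after 24 h, from 12 to 66 reads a library. In each run every treated library lay below the untreated ones of that run. The changes were -0.91 ± 0.25 at 2 h (SE, log2; edgeR adjusted p = 0.040), -0.61 ± 0.25 at 6 h and -0.94 ± 0.32 at 24 h (edgeR adjusted p = 0.24 and 0.16). The log2 promoter-proximal level minus the gene-body level changed by -1.19 ± 0.25 at 2 h and -1.48 ± 0.31 at 24 h (limma adjusted p = 0.027 and 0.043), where over all transcripts 0.972% fell and 0.601% rose at 2 h and 0.23% fell and 0.0802% rose at 24 h. FOXM1 was the 1 gene of the 49 to pass in that difference at either time; at 6 h 0 passed (0.321% fell and 0.13% rose over all), with 3 higher and 2 lower at an unadjusted p under 0.05. The 2 h promoter-proximal call was lost in 11 of 22 alternatives, and of 19 alternatives for the difference between the regions the 2 h call was lost in 6 and the 24 h call in 10. The authors' deposited table gives FOXM1 a promoter-proximal log2 change of -1.05 at 2 h with an adjusted p of 0.22. In the GENCODE annotation RHNO1 starts within 1000 bases of FOXM1 on the other strand, and whether the counting used strand is not given in the sources used here, so reads of the pair may not be told apart. CDC25B, within 1000 bases of whose start CENPB starts on the other strand, showed values of the same kind at 24 h, -0.93 ± 0.34 near the promoter and 0.55 in the body, and its difference of -1.38 ± 0.33 did not pass (limma adjusted p = 0.075).

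**Figure D5:**
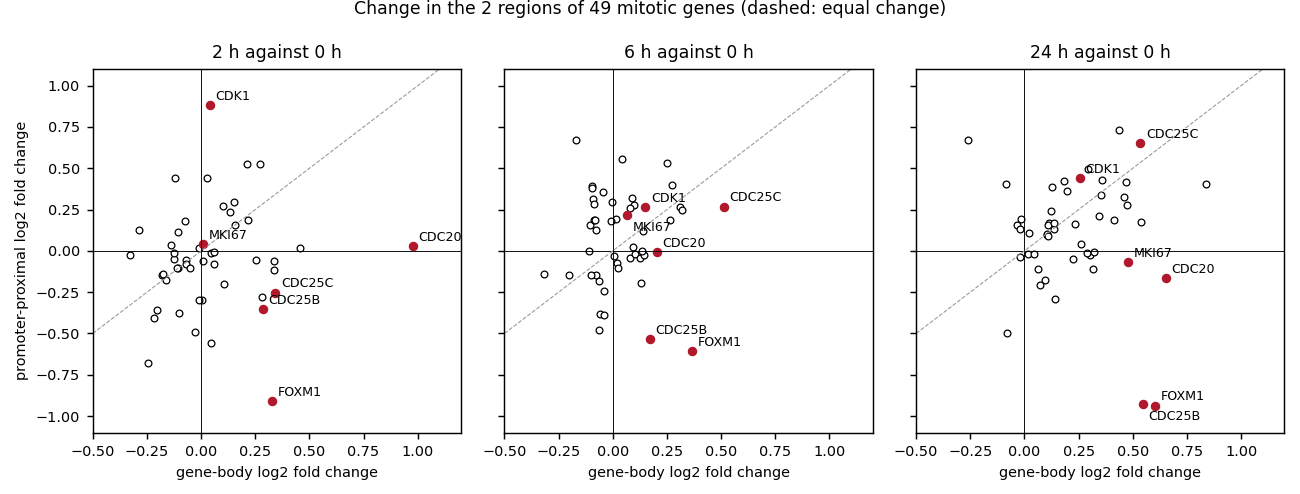
Promoter-proximal against gene-body log2 fold change of 49 genes at 2 h, 6 h and 24 h (dashed line: equal change; red: 6 named genes). FOXM1 lies at the lower right at each time, CDK1 at the top at 2 h, and CDC25B beside FOXM1 at 24 h.

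Strand bears on more of the group. In the same annotation 14 of the 50 genes have a protein-coding gene that starts within 1000 bases on the other strand, among them NCAPD2, KIF15, KIF20A, KIF4A and NUSAP1, and 23 of 50 are overlapped by some gene on the other strand, among them CDC25C and SPC25. MKI67, CENPA, CDK1, CENPI and TOP2A have neither.

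Other genes of cell division, from lists apart from the 50, had medians at 24 h below the 0.21 of the mitotic genes, and the difference was not tested. Over all transcripts 10.8% rose and 9.08% fell at 24 h. Of 29 other kinetochore and centromere genes 6 rose and 0 fell at 24 h (median 0.13), with SPC24, DSN1 and HJURP, the CENPA chaperone, at 0.54 ± 0.11, 0.31 ± 0.08 and 0.44 ± 0.11 (SE, log2). Of 12 chromosomal passenger, shugoshin and checkpoint genes 2 rose (median 0.16), BIRC5 (survivin) by 0.49 ± 0.10 and CDCA5 (sororin) by 0.55 ± 0.12. Of 16 anaphase-promoting complex genes 4 rose and 1 fell (median 0.10), with ANAPC11 at 0.53 ± 0.10 and CDC16 at -0.78 ± 0.10. Of 23 other spindle and cytokinesis genes 4 rose (median 0.17), among them TUBB4B by 1.1 ± 0.21 and KIFC1 by 0.52 ± 0.10. Of 22 genes listed as other entry and exit regulators 5 rose (median 0.13), among them MELK by 0.52 ± 0.08 and CDKN3 by 0.45 ± 0.12. That list also holds HMGB2, LMNB1 and condensin subunits apart from the 50. Of these subunits NCAPG2 rose, by 0.27 ± 0.07, while NCAPH2 at 0.29 ± 0.20 and NCAPD3 at -0.08 ± 0.07 did not pass.

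The regulators of the program did not move as 1 group. Of 12 DREAM and MuvB complex genes, LIN37 rose by 0.74 ± 0.20 and E2F5 fell by 1.38 ± 0.19 at 24 h (SE, log2), and the median was -0.08. Of 5 measured genes of the CDK inhibitors and RB1, CDKN2D rose by 1.77 ± 0.36 and CDKN2A by 0.62 ± 0.15. CDKN2D was read at low levels, 0.46 to 1.3 CPM before treatment and 1.8 to 3.0 at 24 h. The median of the 5 was 0.36, above that of the mitotic genes, a difference that was not tested. DNA replication genes act in S phase. Over all transcripts 19.7% rose and 18.9% fell at 2 h, 13.5% and 13.4% at 6 h and 10.8% and 9.08% at 24 h. Of 43 replication genes, 14 rose and 1 fell at 2 h (median 0.11), 15 rose and 0 fell at 6 h (median 0.18), and 5 rose and 0 fell at 24 h (median 0.07), with POLA2 at 0.40 ± 0.05, 0.50 ± 0.05 and 0.46 ± 0.07. From 6 h to 24 h, 7 of the 43 replication genes had a fitted change above 0 (median -0.09), against 46 of the 50 mitotic genes (median 0.19). The difference between the lists was not tested.

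Markers of the cells moved too. The summed level of the 9 myeloid markers was 7981 to 9596 CPM at 0 h and 6777 to 7268 at 2 h. It was 6779 to 7673 at 6 h and 8434 to 8516 at 24 h, the last within the 0 h range. At 24 h 5 of the 9 rose and 2 fell, where 10.8% of all transcripts rose and 9.08% fell. CD33 at 0.85 ± 0.11 and CD34 at 0.80 ± 0.14 (SE, log2) were among the 5, and the 2 that fell are not named here. The part of these markers in the mitotic genes' change was not tested. All values are shares of a library's reads, so a change common to all genes would not be seen.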

How the data were processed

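PRO-seq reads were counted by the authors in gene bodies and near promoters, and the deposited tables hold raw read counts per transcript, log2 fold changes and adjusted p-values of the authors' comparisons, per the file headers. The submitters' processing notes name the build hg19, and the tools Bowtie2 2.2.2, HOMER, Trimmomatic 0.32, SAMtools, DESeq2 and DESeq. The counter, the windows and the use of strand were not given in the sources used here. From the counts, 14 libraries in 4 groups were fitted with edgeR 4.0.16 (R 4.3.3; TMM, filterByExpr, quasi-likelihood test) on time plus run, with 8 residual degrees of freedom, Benjamini-Hochberg adjustment over all transcripts and a threshold of 0.05. The run term was used because comparisons were to be read within runs. Promoter-proximal minus gene-body log2 CPM (prior count 2) was tested with limma 3.58.1. Alternatives were no run term, run 2 alone, run 1 left out, no filter, DESeq2 1.42.0 or its size factors, gene-body library sizes, another prior count, a threshold of 0.01 each library left out and, added after seeing the data, run and letter together as a block. The scripts' tests were tested on simulated data. The members and lists were chosen with earlier results of these data known.

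Genes were named by rule: FOXM1, MKI67, CCNB1, PLK1, TOP2A and CDC25B, the 4 called genes with the smallest adjusted p at each time, and genes called near promoters get values in every library, every called gene is named, and at most 3 called genes a list are named at each time; the libraries of CENPA and KIF23 were added after their values were seen. Normalized columns (84) were not used, since the raw counts were tested. RefSeq promoters (GRCh38.p14) were matched by symbol, for 8 genes with several starts to the start nearest the listed accession in GENCODE 29, a choice made after the table was seen. P-values measure the spread between these libraries, whose separate cultures are not described beyond the word biological. The authors' deposited tables gave 10 members higher and 3 lower at 2 h, 6 and 2 at 6 h and 15 and 0 at 24 h in gene bodies, and 0 near promoters.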

Additional observations from a re-analysis of the deposited data

Results flagged for a closer look

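The promoter-proximal level of CDK1 in the untreated library of run 3, 223 CPM, lay far from the other 4 untreated libraries, which ran from 64.3 to 100.1 CPM. Chance alone sets apart about 1 sample in 20 groups by this measure. The 6 h libraries of run 3 were also high, at 331 and 290.5 CPM.

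The gene-body level of MKI67 differed between 24 h and 2 h by 0.469 on the log2 scale, a difference that was tested directly (edgeR adjusted p = 0.0084), with 0.48 at 24 h and 0.01 at 2 h against 0 h.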

How the results depend on the processing

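The columns carry a run and a letter, and no source says that a letter marks a shared culture. With run and letter together as a replicate block, chosen after seeing the data (6 blocks, 5 residual degrees of freedom), the gene-body count at 2 h of 12 became 6, that at 6 h 6 (6 higher and 0 lower), that at 24 h 11, of which 10 were among the 12, and those of 24 h against 2 h and 6 h 1 and 0, while near promoters and in the difference of the regions the counts were 2, 0 and 0 and 1, 0 and 1 at 2, 6 and 24 h. Deviations of same-letter libraries of run 2 correlated at -0.07 to 0.13 over the 6 pairs of times (10304 transcripts). These values are from run 2 only and cannot show whether a letter marks a shared culture. The counts of mitotic genes called changed by more than 1.5 times in these settings, and the cause was not tested. Run 2 alone and run 1 left out fit fewer samples. The share of all transcripts called in each setting is not given here, so the counts cannot be set against it. In gene bodies the 2 h count of 12 became 4 at a threshold of 0.01, 2 without the run term and 3 with run 1 left out. The 6 h count of 8 became 2 at 0.01 and 15 in run 2 alone. The 24 h count of 12 became 5 at 0.01, 32 in run 2 alone (31 higher and 1 lower) and 19 with run 1 left out. For 24 h against 2 h the count of 1 became 0 without the run term, 25 in run 2 alone, 8 with run 1 left out and 3 by DESeq2, and for 24 h against 6 h the count of 0 became 12 in run 2 alone, 3 with run 1 left out and 1 by DESeq2. Near promoters the 2 h count of 2 became 0 at 0.01, without the run term and with gene-body library sizes, 6 in run 2 alone and 1 with run 1 left out; run 2 alone gave 2 at 6 h and 4 at 24 h. In the difference of the regions, the 2 h count of 1 became 0 at 0.01 and without the run term and 5 in run 2 alone, the 6 h count became 1 in run 2 alone, and the 24 h count of 1 became 0 at 0.01, 0 without the run term and 3 in run 2 alone. Gene-body library sizes moved the promoter-proximal median of all transcripts to -0.16, -0.23 and -0.23 at 2, 6 and 24 h.

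With each library left out in turn, gene-body counts ran from 3 to 15 at 2 h, 4 to 8 at 6 h, 2 to 16 at 24 h, 0 to 5 for 24 h against 2 h and 0 to 2 for 24 h against 6 h. Promoter-proximal counts ran from 0 to 2 at 2 h and were 0 to 0 at 6 h and 24 h, and those of the difference ran from 0 to 2 at 2 h, 0 to 0 at 6 h and 0 to 1 at 24 h. The lowest 24 h count came without 24 h library A and the lowest 2 h count without the 2 h library of run 1. Over all pairs of a called gene and an alternative, the call was kept in 627, lost in 148 and reversed in 0. The 24 h gene-body median stayed between 0.17 and 0.26 with each library left out. Promoter-proximal reads limit the values of FOXM1, at 12 to 66 reads a library.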
